A study of Homo sapiens with 6 samples.

Results

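The homozygous Dicer-S1344L genotype was set against wild-type in the H1 line of human embryonic stem cells. The comparison took 4 of the 6 libraries of the series, 2 homozygous and 2 wild-type, and all 16199 rows of the deposited count table. Rows were compared between group means and between libraries that carry the same replicate number. The labels give homozygous cells as pm/pm, with S1344L on both alleles, and the third genotype of the series, called hemizygous, as pm/fs. All 3 genotypes had grown for 10 days without doxycycline. Each sample came from 2 dishes of 15 cm. The cells received 2 exposures of 150 mJ/cm2 at 254 nm, and an Ago2 antibody then pulled down the RNA crosslinked to that protein for sequencing, the method called iCLIP. The mutant cells were made by CRISPR-Cas9. The labels do not say whether a genotype is 1 clone or whether its 2 libraries are separate cultures. A p-value here therefore reflects the spread among these libraries alone, and that spread may be technical.

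Dicer cuts the hairpin precursor of a microRNA with a pair of RNase III domains, each of which cleaves a single strand, and releases a duplex of a 5p and a 3p strand. Ago2 keeps one strand as guide and uses bases 2 to 8 of it, the seed, to pair with target RNAs, which are then repressed. The series title calls the mutation a hotspot and speaks of both lost and gained microRNA function. In human embryonic stem cells the miR-302 and miR-372 clusters, which work mainly through 3p strands, and the miR-17 cluster, which yields both 5p and 3p guides, are abundant, while LIN28 proteins hold back let-7. The FGF and Nodal pathways keep these cells pluripotent. A count per gene in an Ago2 pull-down follows both how much of a transcript is present and how much of it is bound. In this table these cannot be told apart, nor can fewer cells of a type from less RNA per cell.

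The guide sequences whose described targets or host genes enter the comparison are shown to make the shared seeds visible. They are mature microRNAs from RefSeq (GRCh38.p14), written 5′ to 3′ with the seed in capitals. The let-7 family comes from the 5p arm, and miR-4458, encoded at chr5:8460933-8460951 on the plus strand, carries the same seed. The miR-17 family is read from 5p arms, whereas the miR-302, miR-372, miR-92 and miR-25 guides are read from 3p arms. The last sequence, miR-205-5p, belongs to a host gene described below.
hsa-let-7a-5p: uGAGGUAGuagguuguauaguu
hsa-let-7b-5p: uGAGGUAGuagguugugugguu
hsa-miR-4458: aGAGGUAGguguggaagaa
hsa-miR-17-5p: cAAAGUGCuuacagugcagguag
hsa-miR-20a-5p: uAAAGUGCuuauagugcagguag
hsa-miR-106b-5p: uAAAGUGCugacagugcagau
hsa-miR-302a-3p: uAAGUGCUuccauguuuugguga
hsa-miR-372-3p: aAAGUGCUgcgacauuugagcgu
hsa-miR-92a-3p: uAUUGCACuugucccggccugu
hsa-miR-25-3p: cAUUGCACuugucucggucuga
hsa-miR-205-5p: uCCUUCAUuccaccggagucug

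The wild-type libraries held 52.9 M and 38.2 M counts and the homozygous libraries 46.2 M and 39.6 M, and mitochondrial rows took 6.59% to 7.91% of a library. Levels are given as CPM, a library's counts scaled to a common total with TMM factors. All 10 embryonic stem cell markers were measured, with a summed level of 5762 and 5870 CPM in wild-type and 6850 and 6297 CPM in homozygous libraries. Of 8 fibroblast markers 4 were measured, at a summed 443 and 321 CPM in wild-type and 298 and 283 CPM in homozygous libraries. Both homozygous sums lay under both wild-type sums. Of 6 neural markers 2 were measured (DCX and TUBB3), at 7.83 to 9.45 CPM over these 4 libraries. MIXL1 was the single measured mesendoderm marker of 6, at 1.23 to 3.07 CPM, and 0 of 6 trophoblast and amnion markers had a row. DICER1 stood at 169 and 126 CPM in wild-type and at 129 and 118 CPM in homozygous libraries, so the groups overlapped, with a log2 fold change of -0.26 (SE 0.19). A substitution need not alter a count, so DICER1 does not check the genotype. AGO2, the protein pulled down, stood at 218 and 222 CPM against 268 and 199 CPM. Its log2 fold change of 0.08 (SE 0.18) became -0.15 without homozygous replicate 1.

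No gene passed the main test across all rows. edgeR's quasi-likelihood test with Benjamini-Hochberg adjustment called 0 of 16199 (0%), with a lowest adjusted p of 1.00, and 435 rows (2.69%) had an unadjusted p under 0.05. Of these, 192 were higher in homozygous cells (1.19% of rows) and 243 lower (1.5%). The edgeR fit took its spread from all 6 libraries, without a term for the replicate number. What same-numbered libraries share therefore stays in that spread, and fits with such a term are given below. Fitted on only the 4 libraries compared, edgeR also called 0 rows, with a lowest adjusted p of 0.0544. limma-voom called 0 rows, with 430 at an unadjusted p under 0.05. DESeq2 called 10 (0.0617%): HTR7, FGF4, B3GALT5, CALCR, ZNF600, PCDHB17P, NOMO1, NDUFS1, FBL and the row ENSG00000253507, which has no symbol. Genes below are therefore described by their values in each library, and higher or lower refers to those values. Where levels are written as a pair against a pair, the wild-type libraries come first and the homozygous second, replicate 1 before replicate 2, and a bracket after them gives the log2 fold change and its SE. Both homozygous libraries lay above both wild-type libraries in 2308 rows (14.2%) and below both in 2207 rows (13.6%).

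The same-numbered pairs differed in how far they spread. Between the replicate 1 libraries the log2 difference, homozygous minus wild-type, had an SD over rows of 0.44, and 3.85% of rows differed over 2-fold. Between the replicate 2 libraries the SD was 0.32, and 1.23% of rows differed over 2-fold. Over rows, which are not independent replicates, the 2 sets of differences correlated at a Pearson r of 0.18, and 55.7% of rows had the same direction in both. The spread was wider for rows under 1 CPM, with SDs of 0.68 and 0.54, than for rows over 100 CPM, with 0.25 and 0.18. For scale, the median gap between the 2 wild-type libraries was 0.25 and the median size of the genotype log2 fold change was 0.14. Differences over 2-fold in both pairs were found for 20 rows upward (0.123%) and 21 downward (0.13%), among them DPPA5 and NOMO1 upward and HTR7, LEFTY1 and MIR4458HG downward.

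**Figure D1:**
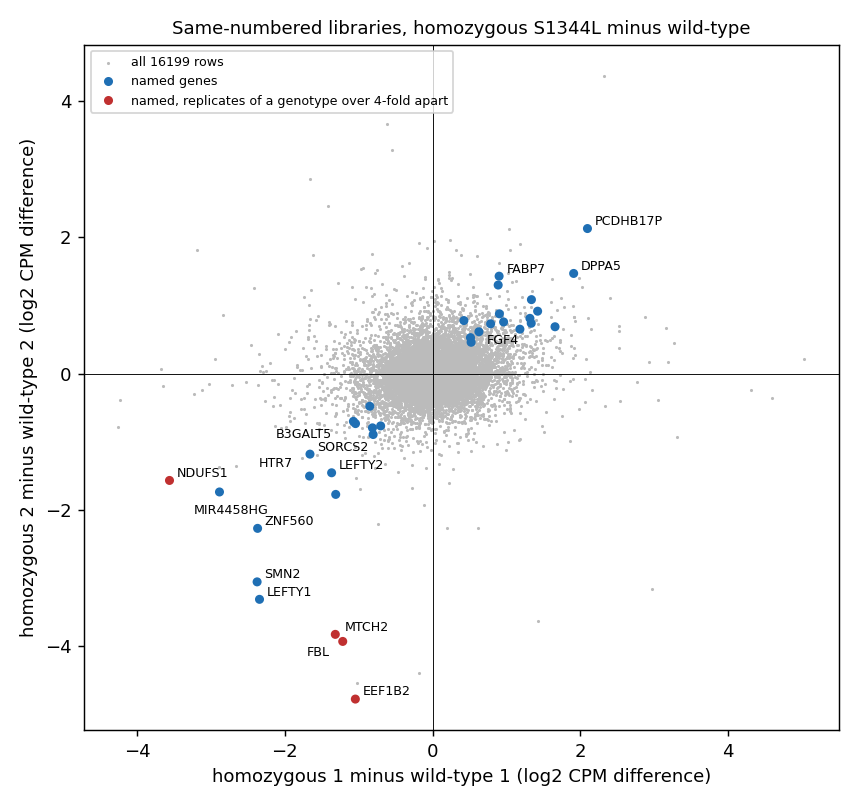
Each point is 1 of the 16199 rows. The x axis is the log2 CPM difference, homozygous minus wild-type, between the replicate 1 libraries and the y axis the same between the replicate 2 libraries; genes named for their rank are blue, or red where replicates of a genotype lie over 4-fold apart. HTR7 sits at -1.67 and -1.51 and FGF4 at 0.79 and 0.73, while most rows scatter about 0.

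Receptors of small ligands and peptides held the gene with the smallest p, HTR7. HTR7 (chr10:90740823-90858039, GRCh38.p14) encodes a serotonin receptor coupled to cyclic AMP. It stood at 25.5 and 25.6 CPM in wild-type replicates 1 and 2 and at 8.02 and 8.99 CPM in the homozygous ones, 25.6 ± 0.0750 against 8.50 ± 0.683 CPM (SD, n = 2 each), or 3.01-fold lower. The groups were far apart and close within. The log2 fold change was -1.59 (SE 0.22), with an unadjusted p of 0.000193 by edgeR (adjusted p of 1.00) and an adjusted p of 3.01e-06 by DESeq2. The hemizygous libraries, tested against the same wild-type libraries, lay between, at 9.26 and 13.5 CPM. CALCR (chr7:93424486-93574724), the calcitonin receptor, whose span also holds the miR-489 hairpin, went the other way, at 3.72 and 5.04 CPM in wild-type and 10.0 and 9.55 CPM in homozygous libraries. Its log2 fold change was 1.16 (SE 0.24), and DESeq2 called it with an adjusted p of 0.0398.

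Of 51 receptor and ligand genes on the list, 42 had a row, and 1 was higher and 5 lower at an unadjusted p under 0.05 by edgeR. Over all rows these shares were 1.19% and 1.5%. None of the 42 was called by edgeR, and 11 lay above 0 (26.2%), against 49.3% of all rows. This list, like the others, was chosen with earlier results of these data known, so such shares describe it and are not a test. The median log2 fold change was -0.17, with -0.23 between the replicate 1 and -0.20 between the replicate 2 libraries. SORCS2, a sorting receptor that binds neurotrophin precursors, stood at 2.95 and 2.07 CPM in wild-type and 0.903 and 0.886 CPM in homozygous libraries (log2 fold change -1.49, SE 0.32). GABRA5, a subunit of the GABA-A receptor, stood at 28.8 and 28.7 CPM against 22.8 and 21.8 CPM. HTR3A, a serotonin-gated ion channel, stood at 6.50 and 5.78 CPM against 2.80 and 4.38 CPM. For SORCS2, GABRA5 and HTR3A alike, both homozygous libraries lay under both wild-type libraries. GRIK3, a kainate receptor subunit, was the fifth of those lower, with a log2 fold change of -0.51 (SE 0.21). GRPR, the receptor of gastrin-releasing peptide, had a larger log2 fold change of -2.17 (SE 0.91) that rested on wild-type replicate 1, at 36.3 CPM, since the other wild-type library stood at 6.34 CPM and the homozygous libraries at 4.14 and 5.34 CPM. The count of 5 lower genes became 2, HTR7 and SORCS2, without homozygous replicate 1, and 3 without homozygous replicate 2.

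**Figure D2:**
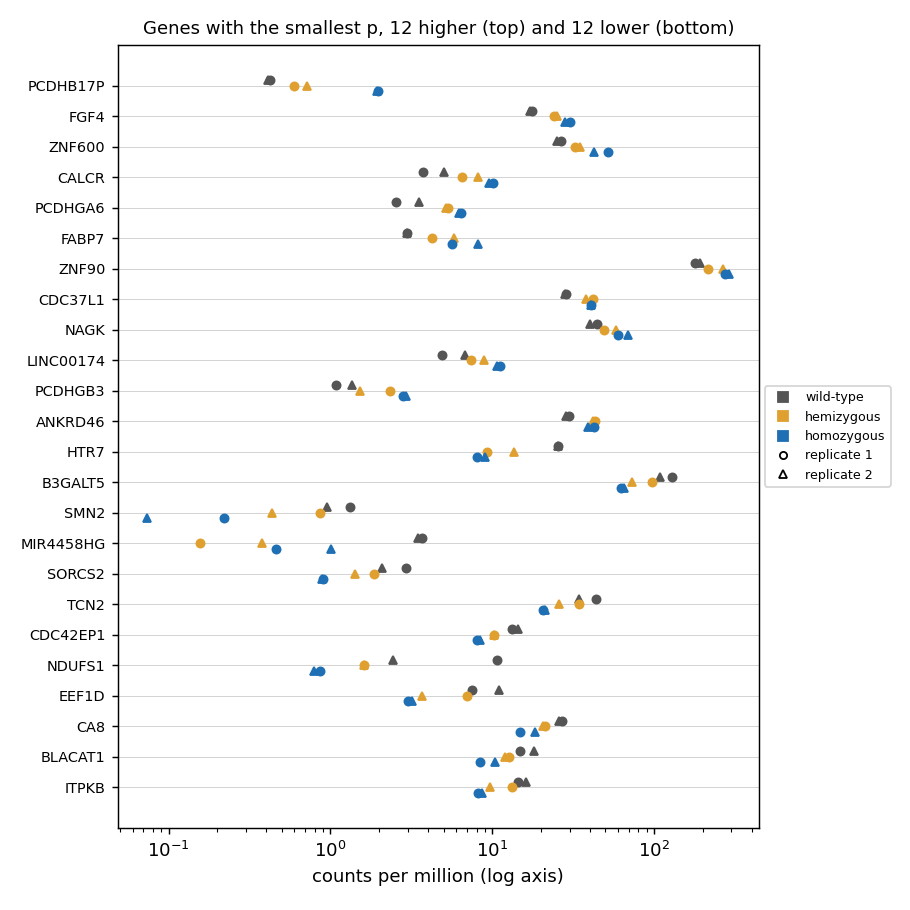
Levels in CPM (log axis) of the 12 genes with the smallest p among those higher (top) and lower (bottom) in both homozygous libraries, with circles for replicate 1, triangles for replicate 2 and a colour per genotype. HTR7 stands at 25.5 and 25.6 CPM in wild-type and at 8.02 and 8.99 CPM in homozygous libraries; NDUFS1 shows 1 wild-type library, at 10.6 CPM, far from the other at 2.43 CPM.

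In the FGF pathway, a ligand and the feedback genes stood on opposite sides. FGF4 (chr11:69771022-69775341), a ligand made by pluripotent cells, stood at 17.5 and 17.0 CPM in wild-type and at 30.2 and 28.3 CPM in homozygous libraries, 17.3 ± 0.336 against 29.2 ± 1.36 CPM (SD, n = 2 each). The groups did not overlap, and the log2 fold change was 0.76 (SE 0.13; adjusted p of 0.0178 by DESeq2). Among the other ligands, FGF8 stood at 6.07 and 3.38 against 7.80 and 6.23 CPM, and FGF2, which is also added to culture media for these cells, at 366 and 257 against 314 and 419 CPM. The FGF8 groups did not overlap and those of FGF2 did. FGFBP3, a secreted protein that binds FGFs, was lower, at 142 and 81.9 CPM in wild-type and 57.1 and 53.1 CPM in homozygous libraries (log2 fold change -1.02, SE 0.39).

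The 4 receptors showed smaller differences. FGFR1 had a log2 fold change of -0.26 (SE 0.22), FGFR2 of 0.22 (SE 0.13), FGFR3 of -0.35 (SE 0.15) and FGFR4 of 0.04 (SE 0.13). For FGFR3 both homozygous libraries, at 29.3 and 32.3 CPM, lay under both wild-type libraries, at 35.6 and 43.1 CPM. FGFR1 overlapped, since its wild-type libraries stood at 264 and 418 CPM and the homozygous at 264 and 303 CPM.

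The Sprouty genes and DUSP6, inhibitors that FGF and ERK signals switch on, were lower in both homozygous libraries. SPRY2 (chr13:80335976-80341126) stood at 77.5 and 71.1 CPM in wild-type and at 43.6 and 41.6 CPM in homozygous libraries, with a log2 fold change of -0.80 (SE 0.21) and same-numbered differences of -0.83 and -0.77. SPRY1 stood at 97.3 and 88.8 against 54.9 and 69.3 CPM (log2 fold change -0.58, SE 0.17). SPRY4 stood at 292 and 265 against 189 and 169 CPM (-0.63, SE 0.23). All 3 Sprouty genes separated the groups. DUSP6, the phosphatase that inactivates ERK, stood at 29.9 and 27.0 against 17.2 and 11.7 CPM, a log2 fold change of -0.98 (SE 0.30). Of the ETS factors that respond to FGF, ETV4 stood at 191 and 254 against 155 and 160.1 CPM (-0.50, SE 0.16) and ETV5 at 52.5 and 64.7 against 39.3 and 45.8 CPM (-0.46, SE 0.16), again without overlap. ETV1 had a log2 fold change of -0.20 and its groups overlapped. Hemizygous replicate 1 stood near wild-type for SPRY2, at 66.8 CPM, and hemizygous replicate 2 near the homozygous libraries, at 43.1 CPM.

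Of 37 genes on the FGF list, 31 had a row, and 8 were lower at an unadjusted p under 0.05: SPRY1, SPRY2, SPRY4, DUSP6, ETV4, ETV5, FGFBP3 and FGFR3. FGF4 was the 1 member higher at that level. Both homozygous libraries lay under both wild-type libraries in 12 members (38.7%, against 13.6% of all rows) and above in 3 (9.68%, against 14.2%). The list's median log2 fold change was -0.10, which became -0.25 when homozygous replicate 1 was dropped, -0.16 when wild-type replicate 2 was dropped and -0.05 when homozygous replicate 2 was dropped. FGD5, which is not an FGF gene, is among the 12. The count of 8 became 2 without homozygous replicate 1 (DUSP6 and SPRY2), 3 without homozygous replicate 2 (ETV5, SPRY1 and SPRY2) and 4 without wild-type replicate 2. No member was called by edgeR, and each of the 8 lower members had an adjusted p of 1.00.

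**Figure D3:**
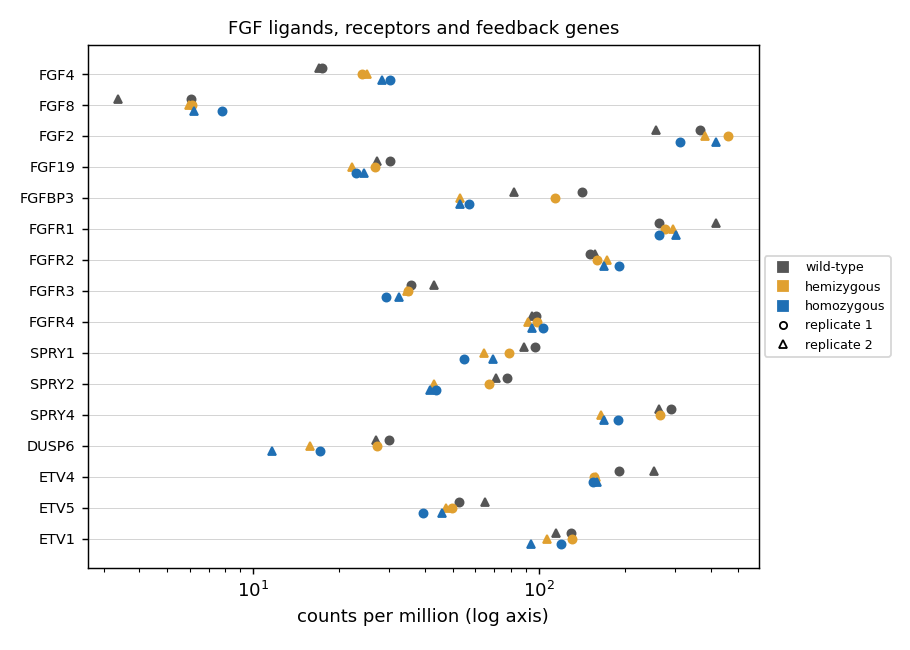
Levels in CPM (log axis) of FGF ligands, receptors, Sprouty genes, DUSP6 and ETS factors in each of the 6 libraries, with circles for replicate 1 and triangles for replicate 2. FGF4 lies higher in the homozygous libraries, at 30.2 and 28.3 CPM, and SPRY2 lower, at 43.6 and 41.6 CPM, than in wild-type.

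The Nodal pathway showed lower counts of its secreted antagonists. LEFTY1 (chr1:225886282-225889146), which blocks Nodal and is itself a Nodal target, stood at 11.9 and 9.01 CPM in wild-type and at 2.31 and 0.862 CPM in homozygous libraries, a log2 fold change of -2.71 (SE 0.94, unadjusted p of 0.025). Hemizygous libraries stood at 5.40 and 0.588 CPM. LEFTY2, its neighbour and relative, stood at 14.6 and 5.63 against 5.62 and 2.02 CPM (-1.40, SE 0.72), which only just separated the groups. In both genes replicate 1 exceeded replicate 2 within each genotype, and the same-numbered differences were -2.34 and -3.32 for LEFTY1 and -1.37 and -1.46 for LEFTY2. The 2 genes are close copies of each other, so the split of reads between them is uncertain. NODAL itself overlapped, at 53.8 and 14.4 against 39.7 and 24.3 CPM. The co-receptor TDGF1 had a log2 fold change of 0.22 (SE 0.14). INHBE, an inhibin subunit, stood at 8.77 and 5.27 against 3.50 and 3.52 CPM, with same-numbered differences of -1.31 and -0.58. Of 32 measured members of 37, 1 was higher at an unadjusted p under 0.05 and 2 were lower (LEFTY1 and INHBE), with a median of -0.04. The higher member was NOMO1, at 1.00 and 0.563 against 5.18 and 12.6 CPM. It has near-identical copies among which reads can be split, so its value is uncertain.

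Enzymes that build stem cell surface glycolipids leaned lower. B3GALT5 (chr21:39612940-39673137), the galactosyltransferase that makes SSEA-3, from which SSEA-4 is built, stood at 129.5 and 109 CPM in wild-type and at 62.8 and 65.5 CPM in homozygous libraries. The groups were separate, the log2 fold change was -0.90 (SE 0.18) and DESeq2 gave an adjusted p of 0.0315. B3GNT5, which starts the lacto-series chains, stood at 31.8 and 29.4 against 22.0 and 22.3 CPM (-0.47, SE 0.14). A4GALT, the Gb3 synthase, stood at 17.5 and 26.4 against 31.0 and 29.0 CPM (0.45, SE 0.26). Of 30 genes listed 26 had a row, and 20 of them lay below 0 and 6 above (23.1%, against 49.3% of all rows). The groups separated downward in 9 (34.6%, against 13.6%) and upward in 2 (7.69%, against 14.2%). At an unadjusted p under 0.05 there were 2 lower, B3GALT5 and B3GNT5, and 0 higher. The list's median was -0.13, at -0.08 in the replicate 1 and -0.17 in the replicate 2 pair.

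Targets described for the guide families stood close to 0 as lists. For let-7 targets, 41 of 44 had a row, 0 had an unadjusted p under 0.05, and the median log2 fold change was -0.09, with 0.02 between the replicate 1 and -0.13 between the replicate 2 libraries. The groups separated upward in 2 (4.88%, against 14.2% of all rows) and downward in 6 (14.6%, against 13.6%). PRTG, a neural cell surface protein, stood at 18.2 and 18.5 CPM in wild-type and 15.1 and 13.6 CPM in homozygous libraries, and HMGA2, an oncofetal chromatin protein, at 216 and 224 against 188 and 189 CPM. Both separated the groups, and the log2 fold change was -0.35 (SE 0.17) for PRTG and -0.22 (SE 0.12) for HMGA2. PRTG went the other way in hemizygous libraries, at 26.6 and 20.6 CPM, and the homozygous minus hemizygous difference was -0.71 (unadjusted p of 0.00504 by edgeR). LIN28A, the let-7 antagonist, overlapped at 1627 and 2121 against 2473 and 2006 CPM.

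Targets of the 5p guides of the miR-17 family had a median of 0.01 over 31 of 35 genes, with 0 at an unadjusted p under 0.05. Here 6 separated the groups upward (19.4%, against 14.2% of all rows) and 2 downward (6.45%, against 13.6%). EGR2, an early response transcription factor, stood at 0.733 and 0.921 against 2.03 and 1.21 CPM (log2 fold change 0.97, SE 0.42). CDKN1A, the p21 inhibitor of the cell cycle and a shared target of the miR-17 and miR-302 families, stood at 112 and 44.6 against 32.8 and 46.2 CPM, so 1 wild-type library set its log2 fold change of -0.99 (SE 0.45).

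Targets of 3p guides had medians slightly below 0, as had the let-7 targets of 5p guides, at -0.09. For the family of miR-302 and miR-372, 31 of 34 genes had a row, with a median of -0.05, and 9 separated the groups downward (29.0%, against 13.6% of all rows) and 3 upward (9.68%, against 14.2%). LEFTY1 was the 1 member at an unadjusted p under 0.05, and LEFTY2 is a target of the same family. ARHGEF3, an exchange factor for RhoA, stood at 10.8 and 9.67 against 7.29 and 7.68 CPM (-0.45, SE 0.19). For the family of miR-92a and miR-25, 20 of 27 genes had a row, with a median of -0.07, and 8 separated the groups downward (40.0%) and 2 upward (10.0%). RNF4, a SUMO-targeted ubiquitin ligase, was the 1 member at an unadjusted p under 0.05, at 108 and 109 against 146 and 132 CPM (0.36, SE 0.13). DKK3, a secreted protein of the Dickkopf family, stood at 26.4 and 23.3 against 18.2 and 17.7 CPM (-0.47, SE 0.20).

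The enzymes and effectors of the microRNA pathway had medians near 0. All 22 biogenesis genes were measured, with a median of -0.01 and 0 at an unadjusted p under 0.05. SRSF3, a splicing factor that aids processing of primary microRNAs, stood at 459.8 and 401 against 275 and 377 CPM (-0.40, SE 0.20). Of the Argonaute and silencing effector genes, 35 of 36 had a row, with a median of -0.02 and again 0 at that level. TNRC6B, the scaffold that links Argonaute to deadenylases, overlapped at 63.7 and 86.5 against 96.8 and 84.1 CPM. CNOT11, a subunit of the CCR4-NOT deadenylase, separated the groups at 71.5 and 70.2 against 85.7 and 78.4 CPM (0.21, SE 0.13).

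Among host genes of microRNAs, MIR4458HG (chr5:8457687-8463096), the host of the let-7-seeded miR-4458 shown above, had the largest difference. It stood at 3.70 and 3.48 CPM in wild-type, 0.463 and 1.01 CPM in homozygous and 0.156 and 0.380 CPM in hemizygous libraries. Wild-type lay above every mutant library, and the log2 fold change of homozygous cells was -2.29 (SE 0.48). MIR205HG, the host of miR-205, stood at 22.5 and 13.1 against 5.07 and 10.4 CPM (-1.21, SE 0.41). MIRLET7BHG, the host of a let-7 cluster that includes let-7b, stood at 0.713 and 1.53 against 2.53 and 2.44 CPM (1.16, SE 0.46). LARP7, a 7SK RNA-binding protein whose gene spans the miR-302 cluster, stood at 56.4 and 62.3 against 77.6 and 86.2 CPM (0.46, SE 0.19). MIR302CHG, the host transcript of that cluster, overlapped at 625 and 526 against 332 and 618 CPM, and MIR17HG at 16.5 and 23.5 against 21.9 and 37.1 CPM. Of 45 host genes 34 had a row, with 2 higher and 2 lower at an unadjusted p under 0.05 and a median of -0.11. Because strand use is not given, LARP7 and MIR302CHG, which lie on the same stretch, cannot be told apart with certainty.

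Core pluripotency factors had a median near 0, with more members separated upward than downward. Of 33 genes 32 had a row, with a median of 0.02 and 18 above 0, and 2 were higher and 0 lower at an unadjusted p under 0.05. Both homozygous libraries lay above both wild-type libraries in 8 members (25.0%, against 14.2% of all rows) and below in 2 (6.25%, against 13.6%). In the same-numbered pairs 11 members were higher in both and 5 lower in both. ESRG, a noncoding RNA of pluripotent cells, stood at 2142 and 2332 against 3028 and 2725 CPM (0.36, SE 0.13). UTF1, a chromatin factor of embryonic cells, stood at 44.6 and 66.6 against 90.0 and 78.9 CPM (0.60, SE 0.23), and in hemizygous libraries at 49.1 and 37.4 CPM, so the homozygous minus hemizygous difference was 0.97 (unadjusted p of 0.00473 by edgeR). SOX2 stood at 341 and 378 against 374 and 412 CPM and NANOG at 198 and 143 against 158 and 185 CPM, both with overlap. POU5F1 was higher in both homozygous libraries, at 87.9 and 88.0 CPM in wild-type and 107 and 129 CPM in homozygous libraries (0.42, SE 0.22).

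Among markers of pluripotent states and of lineages, DPPA5, a naive-state RNA-binding protein, stood at 3.24 and 8.03 against 12.3 and 22.4 CPM (1.63, SE 0.57), and its replicate 2 exceeded replicate 1 in each genotype. With FGF4 it made 2 of 15 measured naive-state genes at an unadjusted p under 0.05, while the list's median was 0.00. FABP7, which carries fatty acids in radial glia, stood at 2.99 in both wild-type libraries and at 5.62 and 8.15 CPM in the homozygous (1.20, SE 0.29). ZIC1, a zinc finger regulator of early neural tissue, stood at 17.9 and 16.3 against 28.2 and 28.0 CPM (0.71, SE 0.19), below the hemizygous libraries at 41.0 and 58.9 CPM. The homozygous minus hemizygous difference of ZIC1 was -0.83 (unadjusted p of 0.00393 by edgeR). KDR, the VEGF receptor of mesoderm and endothelium, stood at 257 and 276 against 376 and 361 CPM (0.47, SE 0.14). KDR was 1 of 6 mesendoderm genes of 24 with a row. Of these 6, 5 lay above 0 (83.3%, against 49.3% of all rows). The groups separated upward in 4 (66.7%, against 14.2%) and downward in 0 (against 13.6%). The median was 0.45, at 0.51 and 0.40 by pair. Apart from KDR these genes stood under 8 CPM in the 4 libraries, and KDR alone had an unadjusted p under 0.05. Neuroectoderm had 9 of 24 genes with a row and a median of 0.02, at 0.29 in the replicate 1 and -0.13 in the replicate 2 pair. Of these 9, FABP7 and ZIC1 among them, 5 lay above 0 and 4 below. They separated the groups upward in 3 (33.3%, against 14.2% of all rows) and downward in 2 (22.2%, against 13.6%). Their summed level was 521 and 485 against 450 and 435 CPM, lower in both homozygous libraries. Of 24 measured primed-state genes, 0 were higher and 1 lower, DUSP6, at an unadjusted p under 0.05 by edgeR. Of the 24, 9 lay above 0 (37.5%, against 49.3% of all rows). The groups separated upward in 0 (against 14.2%) and downward in 4 (16.7%, against 13.6%).

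Clustered protocadherins, cell adhesion proteins of which neurons express different sets, included several of the larger differences among weakly counted genes. PCDHB17P (chr5:141155782-141159061), a pseudogene of the beta cluster, stood at 0.424 and 0.409 CPM in wild-type, 1.96 and 1.94 CPM in homozygous and 0.600 and 0.721 CPM in hemizygous libraries. Its log2 fold change was 2.22 (SE 0.30), and the homozygous minus hemizygous difference was 1.55 (unadjusted p of 0.00128 by edgeR). PCDHGA6 stood at 2.55 and 3.53 against 6.41 and 6.23 CPM (1.06, SE 0.24) and PCDHGB3 at 1.08 and 1.36 against 2.80 and 2.93 CPM (1.24, SE 0.32). Both separated the groups. In the alpha and gamma clusters 35 of 37 genes had a row. At an unadjusted p under 0.05 by edgeR 5 were higher (14.3%, against 1.19% of all rows): PCDHGA6, PCDHGB3, PCDHGC5, PCDHGA5 and PCDHGA12. PCDHGC3 was the 1 lower (2.86%, against 1.5%). The groups separated upward in 12 (34.3%, against 14.2% of all rows) and downward in 5 (14.3%, against 13.6%). Yet the list's median was -0.06 in the fit, and 0.04 between the replicate 1 and 0.03 between the replicate 2 libraries. The gamma genes share their last exons, and reads there cannot be assigned to 1 gene, so these counts are uncertain.

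Cytosolic ribosomal protein genes leaned higher by a small amount in both same-numbered pairs. Of 76 measured genes of 80, 72 lay above 0 (94.7%), against 49.3% of all rows, with a median log2 fold change of 0.18, and 0 had an unadjusted p under 0.05. The median was 0.15 between the replicate 1 and 0.17 between the replicate 2 libraries, 65 members were higher in both pairs and 11 changed sides, and 36 separated the groups upward (47.4%, against 14.2% of all rows) and 0 downward (against 13.6%). RPS24 stood at 1091 and 1088 CPM in wild-type and 1217 and 1396 CPM in homozygous libraries (0.26, SE 0.16). RPL36A stood at 10.2 and 10.3 against 11.1 and 14.4 CPM (0.32, SE 0.19). Many of these genes have near-identical processed pseudogenes, so single values are uncertain. The median stayed between 0.17 and 0.20 under the scalings tried, but it was 0.27 when wild-type replicate 2 was dropped. Dropping wild-type replicate 1 gave 0.10, and dropping homozygous replicate 2 gave 0.09.

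**Figure D4:**
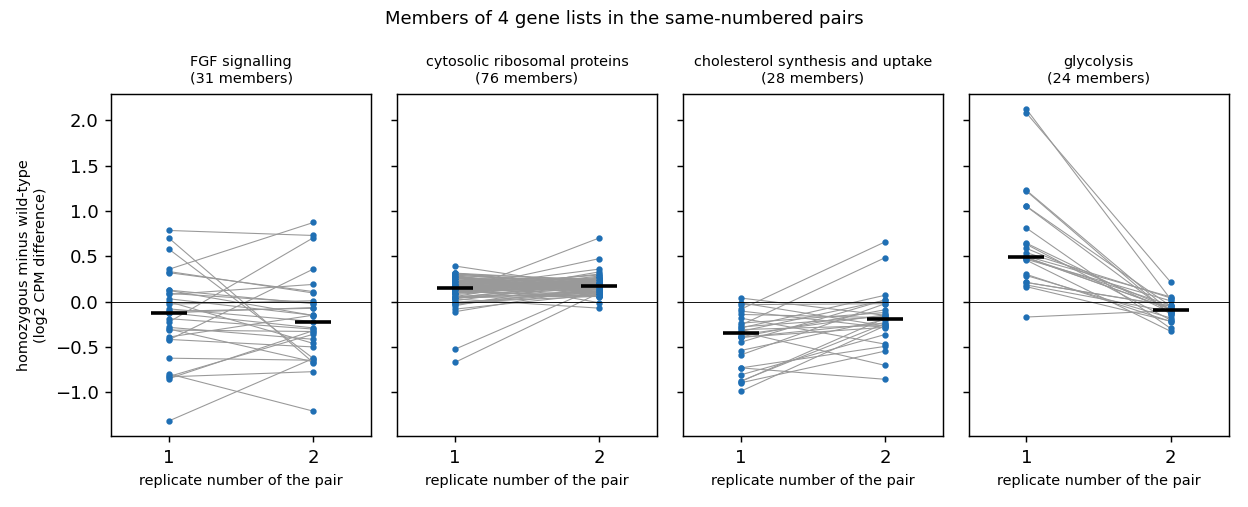
Each line joins the log2 CPM differences, homozygous minus wild-type, of 1 gene in the replicate 1 and replicate 2 pairs, for 4 lists, and black bars are list medians. The ribosomal protein median lies above 0 in both pairs (0.15 and 0.17), with 65 of 76 genes above 0 in both, while the glycolysis median lies above 0 in the first and just under 0 in the second (0.50 and -0.09).

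Cholesterol genes were lower as a list in both same-numbered pairs, and glycolysis genes higher in 1 of them. Genes of cholesterol synthesis and uptake had a median of -0.28, with 0 at an unadjusted p under 0.05. Of the 28 genes, 26 lay below 0 and 2 above (7.14%, against 49.3% of all rows). The median was -0.35 between the replicate 1 and -0.19 between the replicate 2 libraries, and 22 members were lower in both pairs. Both homozygous libraries lay under both wild-type libraries in 4 members (14.3%, near the 13.6% of all rows) and above in 0 (against 14.2%). MSMO1, a sterol methyl oxidase, stood at 279 and 142 against 140.3 and 118 CPM. Wild-type replicate 1 was the highest of the 4 libraries for this gene. Without that library 15 of 28 lay below 0 and the median was -0.05, whereas dropping wild-type replicate 2 gave a median of -0.55, dropping homozygous replicate 1 gave -0.52 and dropping homozygous replicate 2 gave -0.18. Glycolysis genes had a median of 0.25, at 0.50 in the replicate 1 and -0.09 in the replicate 2 pair. Of 24 members 22 lay above 0 (91.7%, against 49.3% of all rows), and BNIP3 and SLC16A3 were higher at an unadjusted p under 0.05. BNIP3, a mitophagy receptor that low oxygen switches on, stood at 60.8 and 90.3 against 257 and 105 CPM. SLC16A3, a lactate exporter, stood at 16.9 and 24.1 against 74.1 and 24.5 CPM. PGK1, a glycolytic kinase, stood at 431 and 433 against 896 and 418 CPM. Homozygous replicate 1 was the single high library for SLC16A3 and PGK1, and without it 8 of 24 members lay above 0 and the median was -0.05. DDIT4, a stress-induced inhibitor of mTOR, followed the same library, at 149 CPM there against 35.8 to 43.9 CPM in the other 3 of the comparison.

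Stress and stromal lists differed mainly between the replicate 1 libraries. Integrated stress response genes had a median of -0.22, with -0.40 in the replicate 1 and -0.06 in the replicate 2 pair. CHAC1, which degrades glutathione, stood at 22.3 and 14.5 against 11.7 and 11.8 CPM (-0.65, SE 0.23), and ASNS, asparagine synthetase, at 6.32 and 3.27 against 2.07 and 2.51 CPM (-1.07, SE 0.44). Fibroblast and stromal genes had a median of -0.38, with -0.56 and -0.05 in the same pairs. PDGFRB, a growth factor receptor of stromal cells, stood at 16.3 and 13.2 against 7.27 and 9.13 CPM (-0.85, SE 0.33), and COL1A2, a collagen chain, at 139.5 and 123 against 99.2 and 94.1 CPM (-0.44, SE 0.19). The summed level of the 4 measured fibroblast markers was lower as well, as given above, and the part of these markers in the other results was not tested. p53 targets had a median of -0.08, at -0.27 and 0.14 by pair, and cell cycle genes a median of 0.02, each with 0 members at an unadjusted p under 0.05. MOAP1, a modulator of apoptosis that binds BAX, stood at 1.72 and 1.84 CPM in wild-type, 0.859 and 1.03 CPM in homozygous and 0.130 and 0.0949 CPM in hemizygous libraries, a graded order in which no groups overlapped.

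**Figure D5:**
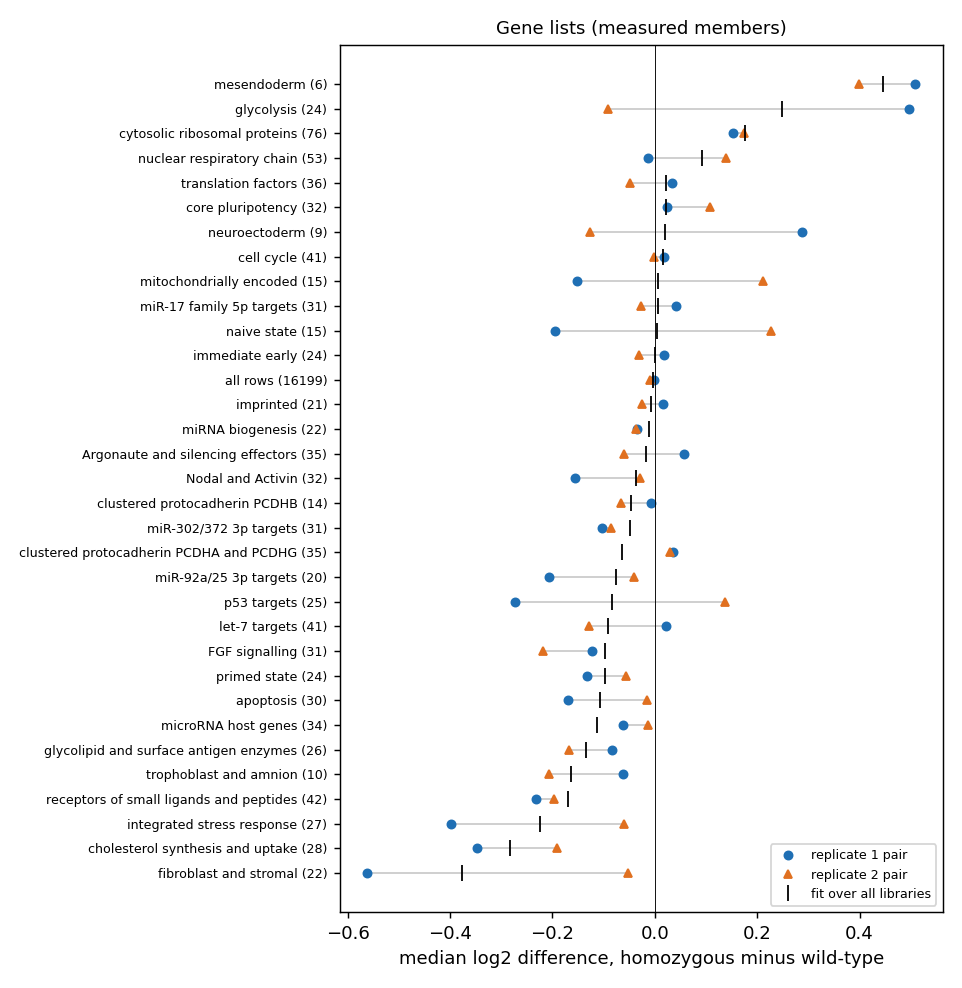
Median log2 difference, homozygous minus wild-type, of each gene list between the replicate 1 libraries (circles), between the replicate 2 libraries (triangles) and in the model (bars), with the number of measured genes in brackets. Ribosomal protein genes and cholesterol genes keep their side of 0 in both pairs (0.15 and 0.17, and -0.35 and -0.19), while glycolysis and p53 targets change sides.

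Most of the remaining genes with the smallest p belonged to none of the lists. Higher in both homozygous libraries were ZNF600 (chr19:52764164-52833645), a zinc finger protein, at 26.7 and 24.9 against 52.1 and 42.2 CPM (0.87, SE 0.15), and ZNF90, of the same family, at 178 and 191 against 275 and 292 CPM (0.62, SE 0.15). Such genes have close relatives, so their counts are uncertain. CDC37L1, a co-chaperone of HSP90, stood at 28.7 and 28.3 against 40.9 and 40.8 CPM (0.52, SE 0.13), and NAGK, N-acetylglucosamine kinase, at 44.6 and 40.1 against 59.8 and 68.8 CPM (0.60, SE 0.15). LINC00174, a long noncoding RNA, stood at 4.90 and 6.83 against 11.2 and 10.8 CPM (0.90, SE 0.23), and ANKRD46, an ankyrin repeat protein, at 29.6 and 28.3 against 42.6 and 39.0 CPM (0.49, SE 0.13).

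Lower in both homozygous libraries was TCN2, the carrier of vitamin B12, at 43.4 and 34.3 against 20.6 and 21.0 CPM (-0.90, SE 0.19). CDC42EP1, an effector of the GTPase CDC42, stood at 13.2 and 14.4 against 8.09 and 8.44 CPM (-0.74, SE 0.16), and ITPKB, an inositol trisphosphate kinase, at 14.3 and 16.2 against 8.20 and 8.69 CPM (-0.86, SE 0.21). CA8, a carbonic anhydrase-related protein, stood at 26.8 and 25.8 against 14.8 and 18.4 CPM (-0.66, SE 0.16), and BLACAT1, whose span holds the miR-135b hairpin, at 14.8 and 18.2 against 8.42 and 10.4 CPM (-0.81, SE 0.19). All 5 separated the groups. EEF1D, a subunit of the elongation factor 1 complex, stood at 7.50 and 11.1 against 3.00 and 3.20 CPM (-1.58, SE 0.36). SMN2, at 1.33 and 0.947 against 0.220 and 0.0738 CPM, has the near-identical copy SMN1, so its value is uncertain. Against the hemizygous libraries, 0 of the 81 named genes were called by edgeR, 12 had an unadjusted p under 0.05 for the difference, and the lowest adjusted p was 0.935.

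Some large differences rested on abrupt gaps between replicates. In 98 rows the 2 wild-type or the 2 homozygous libraries differed over 4-fold. NDUFS1, a subunit of respiratory complex I, stood at 10.6 and 2.43 CPM in wild-type and 0.859 and 0.788 CPM in homozygous libraries. FBL, the methyltransferase of box C/D particles, stood at 3.18 and 20.6 against 1.34 and 1.30 CPM, and EEF1B2, another subunit of elongation factor 1, at 4.69 and 65.0 against 2.25 and 2.31 CPM. In each of these 3 genes 1 wild-type library stood far above the other. MTCH2, a mitochondrial outer membrane protein, stood at 35.9 and 30.8 against 14.4 and 2.12 CPM, with the gap between the homozygous libraries. ZNF560, a zinc finger protein, was even within both groups, at 19.2 and 18.1 against 3.68 and 3.69 CPM, but the hemizygous libraries stood at 0.730 and 21.9 CPM. With hemizygous replicate 1 left out, edgeR called ZNF560.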

How the data were processed

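Ago2 iCLIP RNA was measured in 6 libraries of H1 cells, 2 per genotype. The authors deposited whole-number read counts per gene, without normalization. The genome build was hg38, per the submitters' processing notes. How reads were aligned, counted and annotated, and whether strand or molecular identifiers were used, is not given in the sources used here, so overlapping genes and near-identical copies are uncertain. The IgG controls that the labels mention were not used here. Columns were tied to samples by their descriptions, and 0 were left unused. Of 16199 rows, 14750 matched a RefSeq symbol (GRCh38.p14), 156 an older symbol and 1243 were Ensembl identifiers, and 50 had no match. The lowest row total was 132.

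Counts were scaled with TMM factors, and the filter of edgeR (filterByExpr) kept all 16199 rows. The main test was edgeR's quasi-likelihood test (version 4.0.16, run in R 4.3.3), with a mean per genotype over all 6 libraries, which share 1 estimate of spread, and the contrast of homozygous minus wild-type. Calls used a Benjamini-Hochberg adjusted p under 0.05, over all rows. CPM use the TMM factors, SDs are over 2 libraries, and same-numbered differences are of log2 CPM with a prior count of 2 and carry no test. Alternatives were DESeq2 1.42.0, limma-voom (limma 3.58.1), other scalings, filters, a prior count of 0.5, a fit on the 4 libraries compared, leaving out each library, and a block for the replicate number.

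Genes named were DICER1 and AGO2, the 12 with the smallest p per direction whose groups do not overlap, the 8 per direction with the largest difference shared by both pairs at a mean of 5 CPM or more, and the 2 members of each list with the smallest p. Other list members were named after their values were seen. The comparison and the gene lists were chosen with earlier results of these data known, and lists are described by counts and medians without a test. Libraries held 38.2 M to 52.9 M counts, so the error from sampling reads is small except near 1 CPM. The spread between replicates was far above that error, with a chi-square per degree of freedom of 60.3 for wild-type and 41.7 for homozygous libraries. Whether reads count separate molecules is not given in the sources used here. On simulated counts with 200 of 16199 genes changed, the test recovered 38.0% of log2 changes of 1 and 89.0% of log2 changes of 2, and it called 5 genes that had not been changed. The simulated libraries were drawn independently, without the shared deviation of same-numbered libraries described below. These shares therefore need not hold for the real libraries.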

Additional observations from a re-analysis of the deposited data

How the results depend on the processing

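The number of genes called was 0 by edgeR and by limma-voom and 10 by DESeq2. It was 0 to 1 when each library was left out (EEF1B2 without wild-type replicate 1, ZNF560 without hemizygous replicate 1). Genes at an unadjusted p under 0.05 ranged from 161 to 718 with a library left out, against 435, with 229 when wild-type replicate 1 was left out, 718 for wild-type replicate 2 and 161 for homozygous replicate 1. Over the same left-out libraries, list medians ranged from -0.25 to -0.051 for FGF genes, 0.086 to 0.27 for ribosomal proteins and -0.55 to -0.050 for cholesterol genes, and the ribosomal median was 0.20 with upper-quartile scaling. Counts of members, an alternative added after the data were seen, ranged from 2 to 8 for FGF genes lower at an unadjusted p under 0.05, 2 to 7 for receptors lower at that level, 15 to 26 for cholesterol genes below 0 and 8 to 22 for glycolysis genes above 0. Of 81 named genes, 80 kept their sign in all 16 alternatives. The exception was AGO2, at -0.15 without homozygous replicate 1 and up to 0.28 with another library left out.

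Same-numbered libraries deviated together from their genotype means, with correlations over rows of 0.36 for wild-type and homozygous, 0.74 for wild-type and hemizygous and 0.48 for hemizygous and homozygous libraries, but 2 numbers do not establish a pairing. When that number entered as a replicate block, edgeR called 0 genes over all 6 libraries, with 1942 at an unadjusted p under 0.05. In only the 4 libraries compared, the block gave 4 called genes, with edgeR adjusted p of 0.0081 for ZNF560, 0.0216 for HTR7, 0.0277 for LEFTY1 and 0.043 for DPPA5 (0.406, 0.12, 0.316 and 0.12 with the block over all 6), and 1466 at an unadjusted p under 0.05. Depth limits rows under 1 CPM, and a count of 0 from 2 libraries per genotype does not show an absence of differences.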

Other observations

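Rows with an Ensembl identifier alone and long noncoding RNAs leaned higher in homozygous cells, while other noncoding classes varied. Of 1243 rows named by an Ensembl identifier alone, both homozygous libraries lay above both wild-type libraries in 274 (22.0%, against 14.2% of all rows) and below both in 67 (5.39%, against 13.6%), with a median log2 fold change of 0.15 and medians of 0.17 and 0.14 in the replicate 1 and replicate 2 pairs. For 955 long noncoding RNAs the counts were 207 (21.7%) higher and 84 (8.80%) lower, with a median of 0.11. For 13220 protein-coding genes they were 1691 (12.8%) higher and 1973 (14.9%) lower, with a median of -0.02. For 285 transcribed pseudogenes they were 64 (22.5%) higher and 31 (10.9%) lower, with a median of 0.08, and for 407 other pseudogenes 60 (14.7%) and 47 (11.5%), with a median of 0.00. Of 19 small nucleolar RNA rows, 0 were higher and 4 (21.1%) lower, with a median of -0.05. The 21 mitochondrial rows had a median of 0.01, but of -0.15 in the replicate 1 and 0.21 in the replicate 2 pair, and 16 of them changed sides. Of the 9 microRNA hairpin rows, 3 separated the groups upward and 0 downward, and 0 had an unadjusted p under 0.05 by edgeR. MIR25, the hairpin of miR-25, stood at 1.50 and 2.25 CPM in wild-type and at 1.52 and 3.00 CPM in homozygous libraries, which overlap.

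Chromosome 19 leaned higher as well, mainly between the replicate 1 libraries. Of its 1086 rows, 70.0% lay above 0, with 223 separated upward (20.5%, against 14.2% of all rows) and 61 downward (5.62%, against 13.6%) and a median log2 fold change of 0.08, at 0.20 in the replicate 1 and -0.01 in the replicate 2 pair. The 248 zinc finger genes named ZNF on chromosome 19, to which ZNF600 and ZNF90 belong, had 72 rows separated upward (29.0%) and 10 downward (4.03%), with medians of 0.17 and 0.02 by pair. The 838 other rows there had 151 upward (18.02%) and 51 downward (6.09%), and the 252 ZNF genes elsewhere had 48 upward (19.05%) and 27 downward (10.7%). edgeR called 0 of these rows. MT1H, a metallothionein that binds zinc, stood at 20.0 and 41.4 CPM in wild-type and 63.1 and 66.7 CPM in homozygous libraries.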
